A study of Mus musculus with 11 samples.

Results

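The cytosolic ribosomal protein genes encode the proteins that, with ribosomal RNA, form the large and the small subunit of the ribosome that translates nuclear messages. They were taken as the protein-coding genes of the mouse tables whose symbols follow the Rpl, Rps, Rplp and Rpsa naming pattern, without the Rps6k kinases. This gave 79 of 14667 measured genes, 47 of the large and 32 of the small subunit. The genes lay on 19 chromosomes, with 14 on chromosome 7 and 4 on the X chromosome (Rpl10, Rpl36a, Rpl39 and Rps4x).

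Poly-A RNA came from the dissected nucleus accumbens, a part of the ventral striatum involved in reward, of C57/BL6 mice. All mice carried a virus, which overexpressed either E2F3a, a transcription factor of the E2F family best known for driving cell cycle genes, or green fluorescent protein (GFP). The groups were E2F3a with saline (4 mice), GFP with cocaine (3 mice) and GFP with saline (4 mice), 11 mice in all with 1 mouse per library. Ages, sexes, doses, times after treatment, the promoter of the virus and the cells it infected are not given in the labels. The deposited values are statistics of comparisons, namely log2 fold changes with their t and p-values and an expression level averaged over libraries on a log2 scale, so no level in a single mouse can be shown and the depth of each library is unknown. Standard errors (SE) and 95% intervals were derived from the fold change and its t. Both comparisons use the same 4 GFP mice with saline, so their errors are shared. In bulk tissue, fewer cells of a type and less RNA per cell cannot be told apart. For the overexpressed gene itself, E2f3, the authors' deposited table gives 1.01 on the log2 scale in E2F3a mice against GFP mice (SE 0.20), with an unadjusted p = 0.000337 and an adjusted p = 1.00.

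Nearly all of these proteins are needed in every ribosome, and the genes are among the most strongly and evenly expressed across cell types. Their transcripts are short. Many start with a run of pyrimidines (C and T in the DNA) at the very 5′ end, a feature through which the mTOR kinase pathway and the RNA-binding protein Larp1 control their translation together. In neurons, ribosomes in the cell body and in dendrites supply the proteins used in lasting synaptic change.

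The start-site regions are shown first, because a run of pyrimidines at the start is what these genes are best known to share. RefSeq promoter windows (build GRCm38.p6, from 250 bases before to 50 bases after the start) were found for 58 of the 79 genes, in 69 windows of 300 bases. The stretches printed here run from 100 bases before the annotated start to 20 after it, 5′ to 3′ on the strand of the gene. They come from the genes of each subunit with the highest mean log2 expression among those with a window. Capitals mark the longest run of C or T from 30 bases before to 20 bases after the start.
Rpl4 chr9:64173287-64173406 (plus strand): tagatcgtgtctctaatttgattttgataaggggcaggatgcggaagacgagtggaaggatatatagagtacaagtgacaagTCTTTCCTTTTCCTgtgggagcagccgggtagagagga
Rpl13a chr7:45128726-45128845 (minus strand): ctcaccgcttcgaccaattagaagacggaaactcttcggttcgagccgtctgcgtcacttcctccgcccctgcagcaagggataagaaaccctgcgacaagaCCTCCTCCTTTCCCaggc
Rpsa chr9:120127666-120127785 (plus strand): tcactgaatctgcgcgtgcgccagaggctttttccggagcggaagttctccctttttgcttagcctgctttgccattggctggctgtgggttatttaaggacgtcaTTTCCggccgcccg
Rps4x chrX:102189372-102189491 (minus strand): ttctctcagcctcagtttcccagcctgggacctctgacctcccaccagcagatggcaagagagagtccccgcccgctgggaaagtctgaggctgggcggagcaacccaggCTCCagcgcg
The run was 14 bases long in both Rpl4 and Rpl13a, but 5 bases in Rpsa and 4 bases in Rps4x. Between 30 bases before and 20 after the start, a run of at least 8 lay in 33 of 69 ribosomal protein windows (47.8%). The share was 20.2% of all 32851 promoter windows and 20.2% of the 13311 windows of measured genes. Such a run need not begin at the annotated start, and that of Rpl4 lay from −18 to −5. The motifs that follow were sought in the whole 300 bases. CGGAAG, the core bound by ETS factors such as GABP, occurred on either strand in 60.9% of ribosomal protein windows, against 28.1% of windows of measured genes. AAGATGGC, a form of the YY1 motif, occurred in 11.6% against 4.01%. GGGCGG, the SP1 motif, was about as common in both, at 62.3% against 60.7%. TATAAA, the TATA box, occurred in 10.1% against 7.19%. TTTNGCGC, the E2F motif, was found in 1 of 69 windows (1.45%), that of Rpsa and outside its printed stretch, against 2.20% of windows of measured genes and 1.38% of all windows. A motif match describes the letters of a window and says nothing of binding.

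The ribosomal protein genes were expressed far above the typical gene. The median of their mean log2 expression was 7.65, against 4.79 over all genes, and 73 of the 79 lay above the 75th percentile of genes. The number 2 raised to the mean log2 expression summed to 986624 over all genes, and the ribosomal protein genes made up 1.63% of that sum (0.980% the large and 0.645% the small subunit). Rpl3 (9.35), Rpl4 (9.22), Rpsa (9.14) and Rps4x (8.71) had the highest mean log2 expression in the authors' deposited table. Per kilobase of main transcript, Rplp1 (log2 of 9.58), Rps29 (9.01), Rps15 (8.96) and Rpl9 (8.94) were highest. Rpl23a (2.74), Rps4l (3.85), Rps27l (4.02) and Rpl22l1 (4.77) had the lowest mean log2 expression in the authors' deposited table, and Rpl23a alone lay below the 25th percentile of all genes (3.21). Ribosomal protein genes have many near-identical processed pseudogenes. How reads that match several copies were counted is not given in the sources used here, so levels of genes with such copies, Rpl23a among them, are uncertain.

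Cocaine was compared with saline in GFP mice to ask how the drug alters expression in the accumbens. All 79 ribosomal protein genes had an estimate below 0 in cocaine mice, against 53.8% of all genes. Their median log2 fold change was −0.30, a change of −18.8%, against −0.02 over all genes. The estimates ran from −0.55 for Rps27l to −0.10 for Rps4l. None passed the adjusted threshold of 0.05, where the smallest adjusted p was 0.533, and 0% of all genes passed. At an unadjusted p under 0.05, 7 of the 79 were lower (5 large, 2 small) and none was higher. The percentages over all genes were 7.51 for lower and 1.74 for higher, so the share of 7 in 79 is near that of all genes and is not a result about the ribosomal protein genes. The SD of the 79 estimates was 0.071, less than the typical SE of 1 gene (median 0.17). The genes were measured in the same mice, so a common direction over 79 genes is not 79 separate observations.

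**Figure D1:**
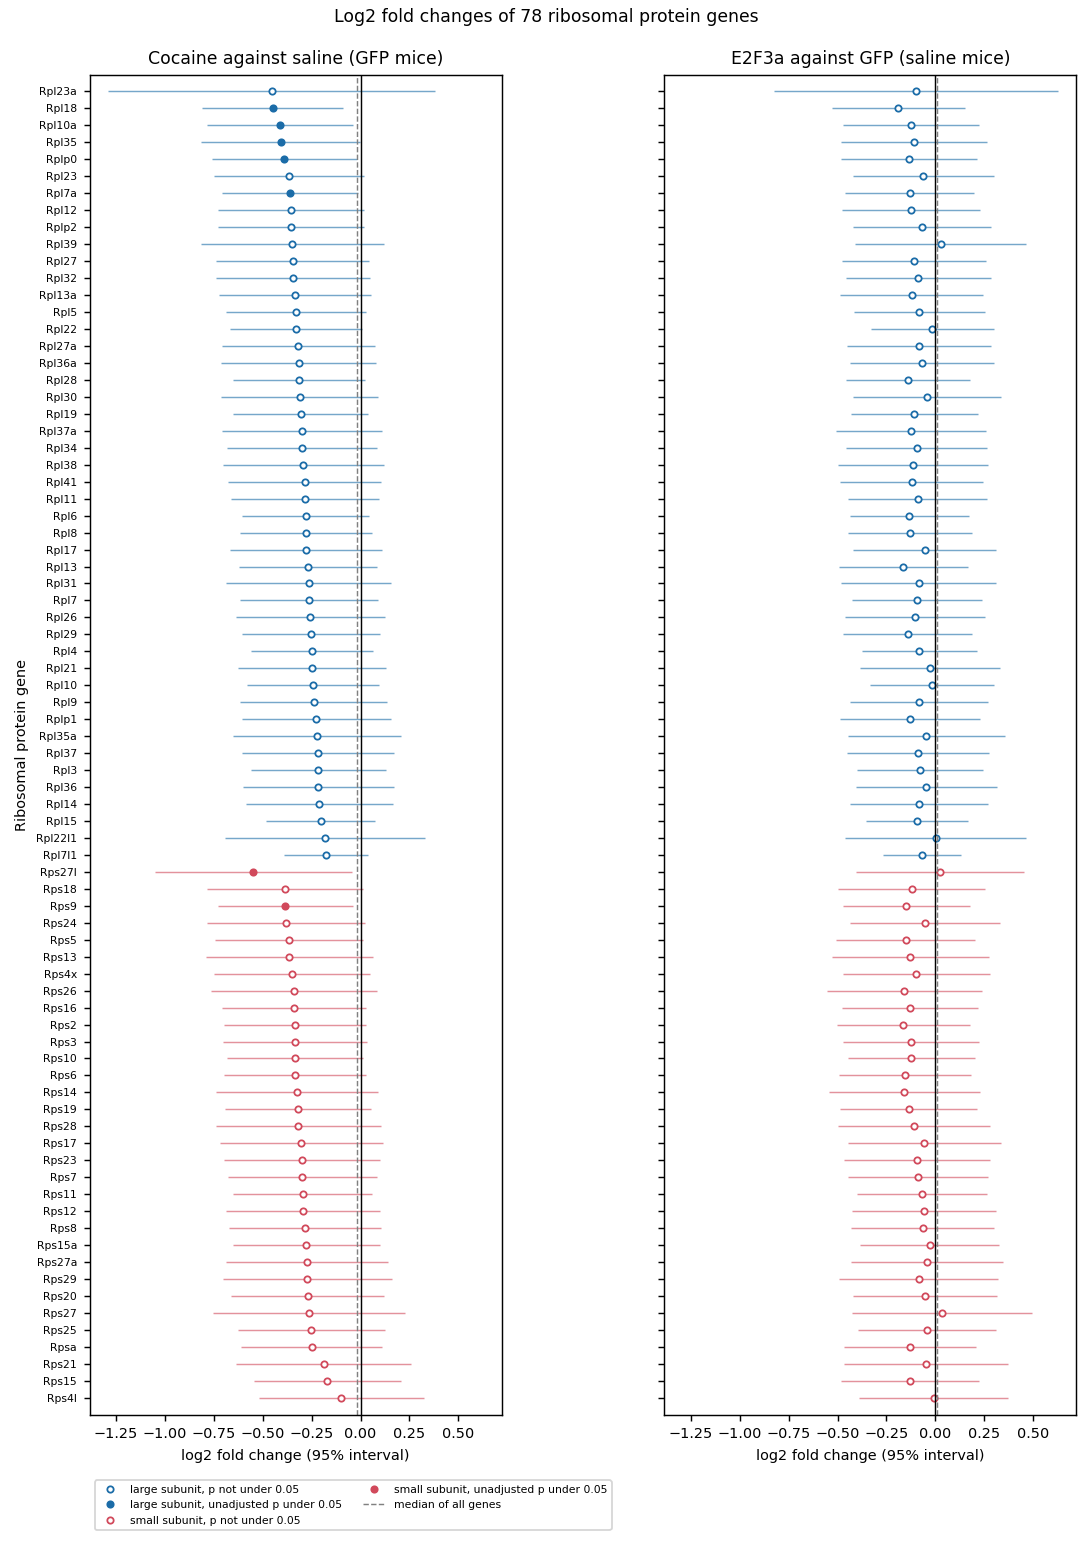
Log2 fold change (x axis) of 78 of the 79 ribosomal protein genes (rows, large subunit above small) with its 95% interval, for cocaine against saline (left) and E2F3a against GFP (right); filled points have an unadjusted p under 0.05 and the dashed line is the median of all genes. All points lie left of 0 in the cocaine panel with 7 filled, and all but 4 lie left of 0 in the E2F3a panel with none filled.

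The plot of genes with their intervals shows how closely the estimates sit together. With cocaine every interval overlaps every other, and 72 of the 79 reach past 0.

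**Figure D2:**
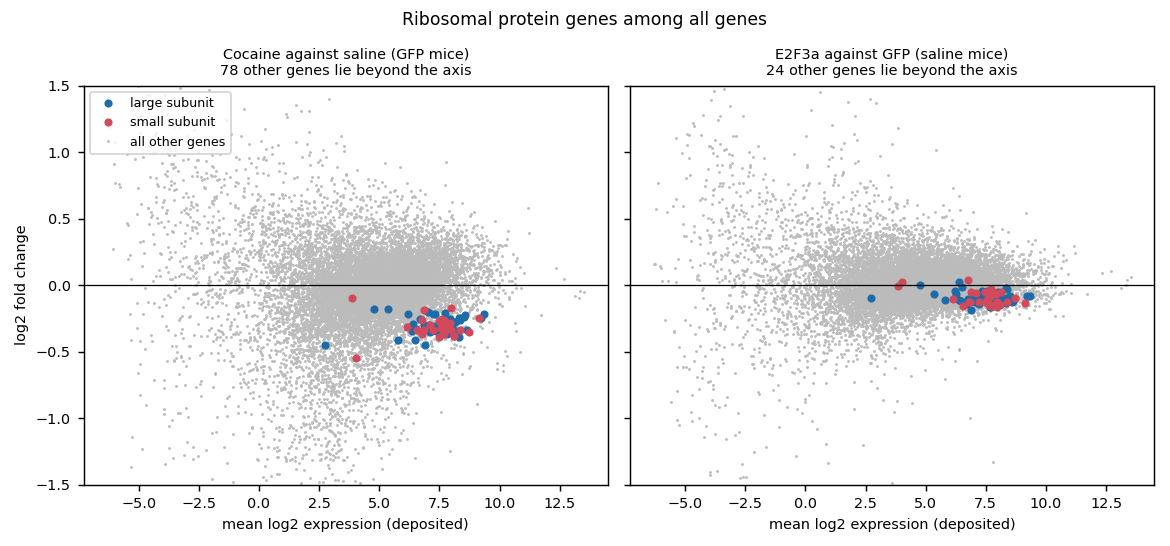
Log2 fold change (y axis) against mean log2 expression (x axis) for all other genes (grey) and for ribosomal protein genes of the large (blue) and small (red) subunit; the y axis stops at 1.5 and the number of genes beyond it is given above each panel. With cocaine the ribosomal protein genes form a band near −0.30 on the right of the cloud, and with E2F3a a band near −0.09.

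The plot against mean expression places that band among genes of like level. Among the 19 ribosomal protein genes with a mean log2 expression over 8, the median log2 fold change with cocaine was −0.28, and among other genes in that range it was 0.089. With E2F3a the same medians were −0.097 for the ribosomal protein genes and 0.019 for the other genes.

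In the large subunit, the median log2 fold change with cocaine was −0.29. Rpl18 is listed at −0.45 (SE 0.16, 95% interval −0.81 to −0.09, unadjusted p = 0.0193) in the authors' deposited table. Its gene lies at chr7:45715457-45720836 in mm10. Rpl10a, close to the exit site of transfer RNA, had −0.41 in the authors' deposited table (SE 0.17, 95% interval −0.78 to −0.04, p = 0.0330). Rpl7a followed at −0.36 in the authors' deposited table (SE 0.16, p = 0.0439). The intervals of these genes overlap almost entirely, so the estimates do not set the genes apart from each other.

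The P stalk, which recruits elongation factors to the ribosome, had a median of −0.36 over its 4 genes. Rplp0, the base of the stalk, is listed at −0.39 in the authors' deposited table (SE 0.17, p = 0.0404). The authors' deposited table gives −0.36 for both Rpl12 and Rplp2 and −0.23 for Rplp1, none at an unadjusted p under 0.05. Around the exit of the tunnel through which the new peptide leaves, 7 genes had a median of −0.31. Rpl35 there is listed at −0.41 in the authors' deposited table (SE 0.19, p = 0.0486). Rpl23a, a docking site of targeting factors, had −0.45 in the same table, but with an SE of 0.38 it had the widest interval of all members. The other tunnel genes, Rpl17, Rpl19, Rpl26, Rpl31 and Rpl39, are listed between −0.35 (Rpl39) and −0.26 (Rpl26) in the authors' deposited table. Rpl5 and Rpl11, which carry the 5S RNA into the ribosome and can bind Mdm2 when assembly fails, stood at −0.33 and −0.28 in the authors' deposited table, neither past the unadjusted threshold. Rpl3 and Rpl4, the large subunit genes of highest mean log2 expression, stood at −0.22 (SE 0.16) and −0.25 (SE 0.14) in the authors' deposited table. Rpl13a, the next by mean log2 expression, stood at −0.33 (SE 0.18) there, further from 0 than the large subunit median.

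In the small subunit, the median log2 fold change with cocaine was −0.31. Rps9, whose yeast counterpart affects the accuracy of decoding, is listed at −0.39 in the authors' deposited table (SE 0.16, 95% interval −0.73 to −0.04, p = 0.0321). Rps2 and Rps3, which line the entry of the messenger RNA together with the product of Fau, both stood at −0.34 in the authors' deposited table (p = 0.0661 and p = 0.0703). Rps6, the target of the S6 kinases, had −0.33 in the authors' deposited table (p = 0.0667). Rpsa, also known as the laminin receptor, had −0.25 (p = 0.154) and Rps4x −0.35 (p = 0.0798) in the authors' deposited table. A partial list of 9 genes mutated in Diamond-Blackfan anaemia, a disease of red cell formation that further ribosomal protein genes can cause, had a median of −0.32 and a range from −0.38 (Rps24) to −0.22 (Rpl35a), none past an unadjusted p of 0.05.

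The subunits lay close together. The large minus small difference of the medians was 0.018 with cocaine and 0.0019 with E2F3a, each far below the median SE of a single gene (0.17 and 0.16). The range was −0.45 to −0.18 in the large subunit and −0.55 to −0.10 in the small subunit with cocaine. Both ends of the small subunit range are low-expressed paralogs, Rps27l and Rps4l.

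Paralogs that resemble a core ribosomal protein were described with their parent genes. Rps27l, induced by p53 in human cells, is listed at −0.55 with cocaine in the authors' deposited table (SE 0.23, 95% interval −1.05 to −0.04, p = 0.0356), and its parent Rps27 at −0.26 (SE 0.22, p = 0.260). Per kilobase, Rps27 was 9.81-fold above Rps27l. Rps4l is listed at −0.10 (SE 0.19, p = 0.621) and its X-linked parent Rps4x at −0.35 in the authors' deposited table, with Rps4x 28.2-fold above Rps4l per kilobase. Rpl22l1 stood at −0.18 (SE 0.23) and Rpl22 at −0.33 (SE 0.15, p = 0.0540) in the authors' deposited table, and Rpl22 was 3.88-fold above its paralog per kilobase. Rpl7l1 had −0.18 (SE 0.10) and Rpl7 −0.26 (SE 0.16) in the authors' deposited table, a 17.8-fold gap in level per kilobase. In each pair the intervals of paralog and parent overlap.

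Some ribosomal genes escape the naming pattern, and 4 of 6 such genes looked up were measured. Gnb2l1, the scaffold protein of the small subunit better known as Rack1, is listed at −0.38 with cocaine in the authors' deposited table (SE 0.15, p = 0.0276). The authors' deposited table also gives −0.34 for Fau (p = 0.0581), −0.32 for Rps3a1 (p = 0.0932) and −0.36 for Rpl36al (p = 0.104). All 4 lay inside the range of the genes chosen by name.

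E2F3a was compared with GFP in saline mice to ask what the factor does without the drug. Here 75 of the 79 ribosomal protein genes had an estimate below 0, against 47.5% of all genes, with a median log2 fold change of −0.09 (a change of −6.26%) against 0.0077 over all genes. Rps27, Rpl39, Rps27l and Rpl22l1 were the exceptions, with estimates between 0.0028 and 0.035 in the authors' deposited table. None passed an unadjusted p of 0.05 in either direction, where the percentages over all genes were 0.409 for lower and 0.545 for higher. The smallest adjusted p was 1.00. Rpl18 had the lowest estimate, −0.19 in the authors' deposited table (SE 0.15, 95% interval −0.53 to 0.15, p = 0.244). Next among the genes named here, in order of p, were Rpl13 (−0.16), Rps2 (−0.16), Rps6 (−0.16), Rps9 (−0.15), Rpl28 (−0.14) and Rpl6 (−0.13) in the authors' deposited table. The median was −0.0932 in the large and −0.0951 in the small subunit. The SD of the 79 estimates, 0.048, was again below the median SE of 0.16.

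Across the 79 genes the E2F3a log2 fold change went down with the GC content of the main transcript (Pearson r = −0.45, Spearman rho = −0.48). The same coefficients were −0.12 and −0.21 over 14584 genes. With cocaine they were −0.0062 and −0.086 over the 79 genes. These are descriptions across genes that share the same libraries and carry no p.

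The E2F3a mice with saline were also set against the GFP mice with cocaine by subtracting the fold changes, in which the GFP mice with saline cancel. All 79 differences were above 0, against 57.7% of all genes. Their median was 0.21 and that over all genes 0.031, both as log2 differences. Rps27l was the only gene higher at an unadjusted p under 0.05 (difference 0.57, approximate SE 0.23) and none was lower, against 3.51% of all genes higher and 0.443% lower by that rule. None passed the adjusted threshold, with a smallest adjusted p of 0.935. The SE assumes equal weight for every library and is approximate.

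Both shifts were set beside transcript length, because log2 fold changes in these tables move with it. Ribosomal protein genes had a median main transcript of 780 bases (345 to 5179), against 2803.5 over all genes, with a median 3′ UTR of 86.5 bases against 993. In the class up to 500 bases, the 13 ribosomal protein genes had a median of −0.27 with cocaine, against −0.22 for 79 other protein-coding genes, and −0.057 with E2F3a, against −0.073. In the class over 500 and up to 1000 bases, the 41 ribosomal protein genes had a median of −0.31 with cocaine, against −0.19 for 661 other protein-coding genes, and −0.11 with E2F3a, against −0.093. In the class over 1000 and up to 2000 bases, the 21 ribosomal protein genes had −0.31 with cocaine, against −0.14 for other protein-coding genes, and −0.093 with E2F3a, against −0.059. Other protein-coding genes over 8000 bases had medians of 0.22 with cocaine and 0.12 with E2F3a. Among the 79 ribosomal protein genes themselves, the cocaine fold change and length had a Pearson r of 0.075 and a Spearman rho of −0.0010.

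**Figure D3:**
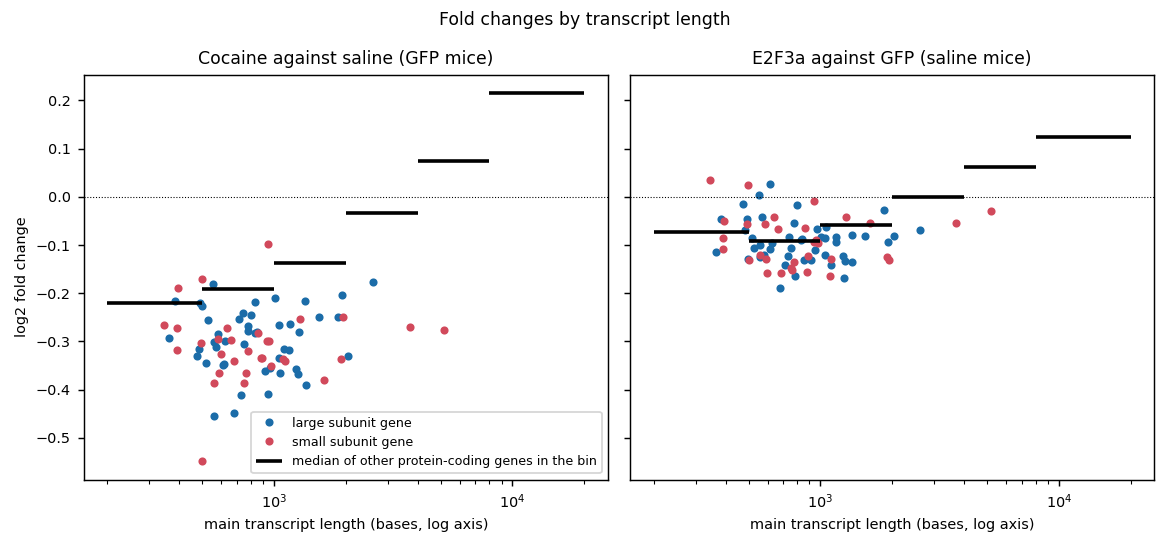
Log2 fold change (y axis) against main transcript length in bases (log x axis) for ribosomal protein genes of the large (blue) and small (red) subunit; black bars are medians of other protein-coding genes in 6 length classes, drawn from 200 to 20000 bases. With cocaine most points lie under the bar of their class, and with E2F3a the points scatter about the bars.

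The plot by length sets each gene against other genes of like transcript size. A cubic trend in log2 length and mean expression, fitted over 14584 genes, was then removed. With cocaine, 78 of 79 genes stayed below 0 with a median of −0.23 (−0.22 large, −0.25 small). Over all genes after the same removal, 54.4% lay below 0 and the median was −0.020. Among the 79, only Rps4l was above 0, at 0.052. With E2F3a, 38 of 79 lay below 0, against 45.3% of all genes, and the median was 0.0033, against 0.012. The count of genes lower with cocaine at an unadjusted p under 0.05 was 1 in place of 7, against 6.19% of all genes after the same removal. That gene was Rps15a (−0.41), whose annotated main transcript of 5179 bases is the longest of the set. With the shortest principal transcript as the length, the 1 gene was instead Rpl18 (−0.36), against 6.28% of all genes.

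**Figure D4:**
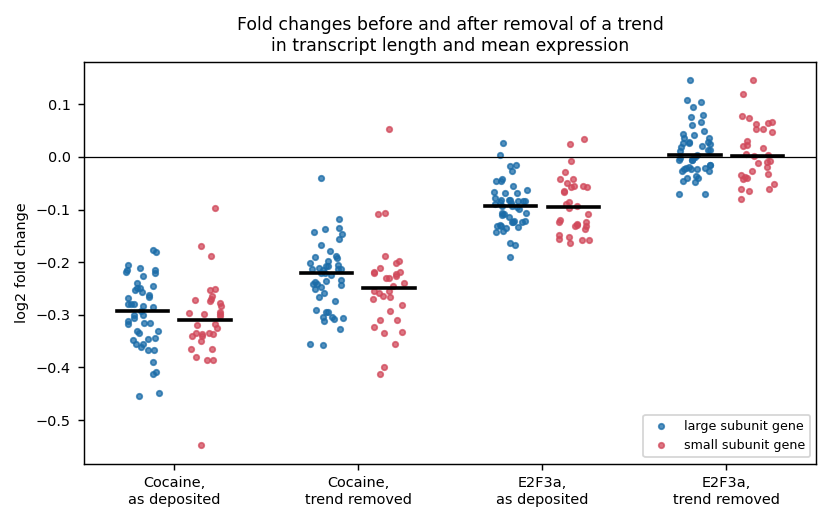
Log2 fold change (y axis) of each ribosomal protein gene as deposited and after removal of the trend in length and mean expression, by comparison and subunit (large blue, small red); black lines are medians. The cocaine medians (large, small) move from −0.29 and −0.31 to −0.22 and −0.25. The E2F3a medians move from −0.093 and −0.095 to 0.0033 and 0.0027.

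The plot before and after removal shows the step in each gene. What the length trend itself comes from was not tested.

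The rest of the translation machinery had medians nearer 0 with cocaine. After removal of the length and expression trend, the cocaine median was −0.23 for ribosomal protein genes, with 78 of 79 below 0. It was −0.17 for elongation factors (10 of 11 below 0) and −0.14 for initiation factors (32 of 34). For ribosome assembly and nucleolus it was −0.034 (21 of 37), and for regulators of ribosomal protein synthesis −0.077 (10 of 13). Counts of genes in these lists at an unadjusted p under 0.05 are as deposited unless stated. They stand beside 7.51% of all genes lower and 1.74% higher with cocaine, and 0.545% higher with E2F3a. The elongation factor list (11 genes) also holds genes that are not elongation factors, such as Tpt1 and the kinase Eef2k. Its median was −0.18 with cocaine and −0.068 with E2F3a. Tpt1, whose transcript also starts with a pyrimidine run, was the 1 gene lower at an unadjusted p under 0.05 with cocaine, at −0.42 in the authors' deposited table (SE 0.17, p = 0.0319), and Eef2k, the kinase that inhibits Eef2, the 1 gene higher with E2F3a, at 0.24 (SE 0.10, p = 0.0356). Eef1a1 and its neuronal counterpart Eef1a2 are listed at −0.22 (SE 0.14) and 0.093 (SE 0.13) with cocaine in the authors' deposited table.

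Initiation factor genes (34) had medians of −0.15 with cocaine and −0.038 with E2F3a. With cocaine 3 of the 34 were lower at an unadjusted p under 0.05 and none higher. As deposited, that share is near the 7.51% of all genes and is no result about initiation factors. After removal of the length and expression trend, 6 of the 34 were lower and none higher, against 6.19% of all genes lower. The genes share the same mice, and the difference from all genes was not tested. The genes were Eif4ebp1, the mTOR-controlled repressor of cap binding, at −0.68 (SE 0.25, p = 0.0196), Eif6, which keeps the subunits apart, at −0.34 (SE 0.13, p = 0.0244), and Eif3d, a cap-binding subunit of eIF3, at −0.29 (SE 0.12, p = 0.0296) in the authors' deposited table. Genes of ribosome assembly and the nucleolus (37) had medians of −0.082 with cocaine and −0.030 with E2F3a, with none past the threshold in either direction. The 13 regulators of ribosomal protein synthesis had medians of −0.0099 with cocaine and 0.036 with E2F3a, also with none past it. Among them Mtor is listed at 0.29 (SE 0.16, p = 0.0931), Myc at −0.41 (SE 0.23, p = 0.105) and Larp1 at 0.034 (SE 0.14, p = 0.808) with cocaine in the authors' deposited table.

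Mitochondrial ribosomal protein genes (76) serve as a counterpart, since they also build a ribosome from short transcripts. Their median main transcript was longer (1280 against 780 bases) and their median mean log2 expression lower (4.55 against 7.65). With cocaine the median was −0.30 for the cytosolic and −0.16 for the mitochondrial genes, and with E2F3a −0.09 for the cytosolic and −0.10 for the mitochondrial genes. Mrps6, Mrps7, Mrpl14 and Mrpl54 were lower with cocaine at an unadjusted p under 0.05, from −0.46 to −0.24 in the authors' deposited table, and none was higher. These 4 of 76 are a smaller share than the 7.51% of all genes. The 81 respiratory chain genes had medians of −0.17 with cocaine and −0.093 with E2F3a, with none past the threshold. After removal of the length and expression trend, the cocaine medians were −0.23 for cytosolic ribosomal proteins, −0.043 for mitochondrial ribosomal proteins and −0.082 for the respiratory chain. The differences between these lists were not tested, since genes are not replicates.

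**Figure D5:**
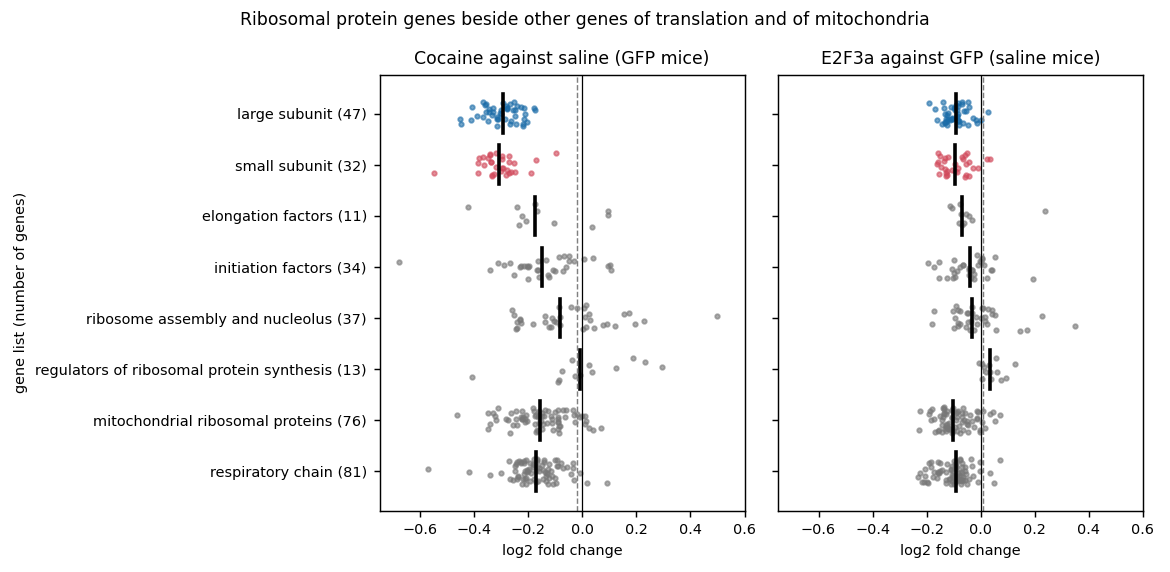
Log2 fold change (x axis) of each gene in 8 gene lists (rows, number of genes in brackets) for cocaine against saline (left) and E2F3a against GFP (right); black bars are medians and the dashed line is the median of all genes. With cocaine the medians of both ribosomal subunits lie left of those of the other lists, though the points of the lists overlap. With E2F3a the subunit medians lie near those of the mitochondrial lists.

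The plot of gene lists sets the subunits beside the other genes of translation and of mitochondria. Ribosomal protein pseudogenes (18), with a median mean log2 expression of only −0.18, had a median of −0.64 with cocaine and −0.28 with E2F3a. With cocaine 5 of the 18 were lower at an unadjusted p under 0.05, against 7.51% of all genes. At so low an expression the estimates are imprecise (median SE 0.36), and whether they hold reads of the parent genes was not tested.

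Markers of several other cell types lay lower in the same comparison. Over all genes, 7.51% were lower and 1.74% higher with cocaine at an unadjusted p under 0.05, and 0.409% were lower with E2F3a. With cocaine, 5 of 5 blood markers were lower at an unadjusted p under 0.05 (median −1.54), as were 10 of 12 leukocyte markers (median −1.11) and 6 of 12 microglia markers (median −0.46). So were 4 of 8 markers of subventricular progenitors and dividing cells (median −0.78, with 1 marker higher) and 4 of 7 of endothelium and mural cells (median −0.28). Of astrocyte markers 2 of 7 were lower (median 0.031), and of 6 oligodendrocyte and 3 ependyma and choroid plexus markers none passed (medians −0.027 and −0.15). With E2F3a, 5 of 5 blood and 2 of 12 leukocyte markers were lower at that threshold, with medians of −0.87 and −0.49, and 1 of 7 endothelium and mural markers (median −0.075). None of the microglia, dividing cell, astrocyte, oligodendrocyte or ependyma markers was lower at that threshold, with medians of −0.00090, −0.16, 0.20, 0.15 and 0.37 in that order. Among the defining markers, Hbb-bs is listed at −1.54 and Ptprc at −0.96 with cocaine in the authors' deposited table, with mean log2 expression of 4.42 and 7.58. The 10 measured markers of medium spiny neurons, the main neurons of the accumbens, had a median mean log2 expression of 7.91 and a median log2 fold change of 0.057 with cocaine and −0.090 with E2F3a. Summed marker levels by group cannot be formed from comparison statistics, and the part of these cell types in the ribosomal protein values was not tested.

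Start-site runs did not set the ribosomal protein genes apart among themselves. With cocaine, the 31 genes with a run of at least 8 pyrimidines had a median of −0.31 and the 27 without one −0.32. With E2F3a the medians were −0.089 with a run and −0.11 without one. Rpsa, the 1 gene with the E2F motif, stood at −0.13 with E2F3a in the authors' deposited table (SE 0.15, p = 0.411), inside the range of the other members.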

How the data were processed

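Poly-A RNA libraries from the nucleus accumbens of 1 mouse each were sequenced as single-end reads, per the labels' protocols, with a kit that does not mark strand. The tools Bowtie2 (2.1.0), TopHat2 (2.0.9) and HTSeq (0.6.0) and the build mm10 are credited to the submitters' processing notes. Normalization, filters, the annotation release, the test program and the depth per sample: not given in the sources used here. Values came as 2 tables, deposited by the authors, each over 14667 genes. By their headers, the deposited columns are log2 (fold change and average expression), score (t and log odds) and p-value (raw and adjusted) columns, under limma's names. No value per library was used, so the authors' statistics were taken without a refit, as the design had foreseen for such tables.

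The SE is log2 fold change over t, and 95% intervals use 11.29 degrees of freedom, which the deposited p-values fit. The cocaine and E2F3a fold changes were subtracted for the third comparison, with the cocaine SE and Benjamini-Hochberg adjustment over all genes. Lengths, coordinates and GC content come from the main transcript of GENCODE M21 (APPRIS principal, then best support level, then lowest transcript number), found for 14584 genes (99.4%). Promoters come from RefSeq. The members and lists were chosen with earlier results of these data known. Named were the 8 genes of smallest unadjusted p in each direction of each comparison, the 4 highest and 4 lowest by mean expression, paralogs with their parents, genes the name rule misses, whole structural groups, and up to 3 or 4 leading genes of other lists. Mtor, Myc, Larp1, Eef1a1, Eef1a2, Hbb-bs and Ptprc were named for their roles. Rps15a was named after its value was seen. A gene that the rule would name is not reported here; the counts and medians include it. The scripts were tested on simulated data. Python 3.11.15, numpy 2.4.6, scipy 1.17.1, pandas 2.3.3 and matplotlib 3.10.9 were used.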

Additional observations from a re-analysis of the deposited data

How the results depend on the processing

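Of 108 alternative values for 14 results, 94 were kept. A median or difference was kept if its sign held and it moved by less than the members' median SE. That SE was 0.17 with cocaine and 0.16 with E2F3a. The subunit differences and the E2F3a medians were themselves smaller than that SE. For them the rule could hardly fail except by a change of sign. A count was kept if it stayed near its main value, as when 7 became 5 after centring on the median of all genes. Some could not change, such as a count of 0 under a stricter threshold or a subunit difference under centring. In 4 others the count of ribosomal protein genes lower with cocaine at an unadjusted p under 0.05, which was 7, became 0 at an unadjusted p under 0.01, 1 after removal of the length and expression trend, 1 with that trend fitted on protein-coding genes only and 1 with the shortest principal transcript as the length. In the other 10 an E2F3a value changed sign. After those 3 ways of removing the trend, the median of all members, −0.093 as deposited, was 0.0033, 0.012 and 0.0011, and that of the large subunit was 0.0033, 0.011 and 0.0021. The small subunit median, −0.095 as deposited, was 0.0027 and 0.014 in the first 2. The large minus small difference with E2F3a, 0.0019, was −0.0014 with means and −0.0030 with the trend of protein-coding genes. The last 2 ways of removing the trend, and the removal of genes with an SE over 0.2, were chosen after seeing the data. The median with cocaine ran from −0.30 to −0.20 over all alternatives. The median with E2F3a ran from −0.10 to 0.012. No alternative gave a call at an adjusted p of 0.05 or 0.1. No paired analysis was possible because the tables hold statistics of comparisons and no values per library, so leaving out a library was not possible either. Depth is unknown, and the SE of about 0.17 per gene limits what 1 gene can show.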
